A study of Mus musculus with 15 samples.

Results

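The BCL2 family was measured as 10 genes on mouse arrays of medulloblastoma, a tumour of the cerebellum, and of normal cerebellum. The members were the survival genes Bcl2, Bcl2l1 and Mcl1, the pore-forming genes Bax and Bak1, and the genes of the BH3-only proteins Bid, Pmaip1, Bbc3, Bcl2l11 and Bad. A probe counted as a member where the RefSeq transcript it was designed for belongs to one of these genes. This gave 16 probes for the 10 genes, of 41098 probes that name 32628 genes or transcripts. One probe each served Bax, Pmaip1, Bbc3, Bid and Bad, and the other 5 genes had several. All 10 genes were among the 21661 tested.

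RNA of 15 samples from mice had been hybridised with Cy3 to 1 Agilent array each, in 5 groups of 3. The 12 tumours came from mice heterozygous for Ptch1 (Ptch1+/-), on the C3B6F1 background, that were watched until moribund. S-type tumours came from mice with no irradiation (S-type 0 Gy: MB1, MB2, MB3) or 0.2 Gy of X-rays on postnatal day 1 (S-type 0.2 Gy: MB4, MB5, MB6). R-type tumours came from mice given 0.2 Gy (R-type 0.2 Gy: MB7, MB8, MB9) or 1.5 Gy (R-type 1.5 Gy: MB10, MB11, MB12) on that day. The 3 normal cerebella (NC1, NC2, NC3) have neither strain nor genotype in the labels, so whether they carry the Ptch1 mutation is not known. Age was 103, 103 and 113 for the normal cerebella, 128 to 173 for S-type and 87 to 127 for R-type tumours, with no unit in the labels. The ages of the types do not overlap, so type and age cannot be told apart. MB6 came from a male, and the other samples from females. Ptch1, the targeted gene, was at −3.33 to −3.03 in normal cerebellum, −2.08 to −1.47 in S-type and −3.16 to −2.71 in R-type tumours (log2 signal less the array's 75th percentile), and where its probe lies relative to the targeted part is not known. The labels do not say how a tumour was called S-type or R-type. Each sample was taken as 1 mouse, and p-values measure the spread between these samples.

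BCL2 proteins decide whether a mitochondrion releases cytochrome c and starts the caspase cascade. BCL2, BCL-XL (the product of Bcl2l1) and MCL1 hold BAX and BAK in check, and BH3-only proteins bind these guardians or switch on BAX and BAK. Granule neuron precursors of the cerebellum, from which Hedgehog-driven medulloblastomas with a Ptch1 mutation arise, depend on this balance for their survival, and p53 is a known activator of Bax, Bbc3 and Pmaip1.

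Promoter windows of 3 members are shown because they differ in the known motifs they hold: among the 9 members searched, which leave out Pmaip1, Bax alone has a p53 half-site and Bcl2l1 alone an E2F motif, and Bid, the gene with the largest change in the tumours, has none. Each runs 5′ to 3′ on the gene's own strand from 250 bases before to 50 bases after the transcript start, from RefSeq on GRCm38.p6, and capitals mark motif matches on either strand. The Bax window is chr7:45466849-45467148 on the minus strand, with a p53 half-site (the 10-base unit of the p53 consensus) at −201 and E-boxes (CACGTG) at −9 and 36, counted from the start. The Bcl2l1 window is chr2:152830668-152830967 on the minus strand, with its E2F motif at −145, and it is 1 of 3 start sites of that gene. The Bid window is chr6:120916775-120917074 on the minus strand.
Bax: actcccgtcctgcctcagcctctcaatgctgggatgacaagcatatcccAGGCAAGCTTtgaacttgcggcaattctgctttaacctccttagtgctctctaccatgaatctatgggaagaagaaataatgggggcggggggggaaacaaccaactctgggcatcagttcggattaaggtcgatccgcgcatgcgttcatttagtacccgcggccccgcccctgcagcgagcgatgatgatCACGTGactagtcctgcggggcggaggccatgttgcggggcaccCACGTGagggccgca
Bcl2l1: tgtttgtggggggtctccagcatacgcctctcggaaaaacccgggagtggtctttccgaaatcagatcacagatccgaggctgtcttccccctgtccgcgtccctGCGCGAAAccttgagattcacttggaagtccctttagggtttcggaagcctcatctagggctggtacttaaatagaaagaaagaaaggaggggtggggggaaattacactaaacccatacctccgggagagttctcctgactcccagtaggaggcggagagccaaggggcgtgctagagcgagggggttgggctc
Bid: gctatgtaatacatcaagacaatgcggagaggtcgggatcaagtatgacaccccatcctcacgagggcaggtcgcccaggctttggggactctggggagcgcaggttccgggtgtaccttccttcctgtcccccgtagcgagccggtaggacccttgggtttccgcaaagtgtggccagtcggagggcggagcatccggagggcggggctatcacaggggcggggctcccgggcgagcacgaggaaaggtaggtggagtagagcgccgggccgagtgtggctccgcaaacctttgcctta

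The search covered 15 windows of 9 members. A GLI motif (GACCACCCA) was in 0 of the 15 windows and in 0.253% of all 32851 windows of the same length. An E2F motif (TTTCCCGC, TTTCGCGC, TTTGGCGC or TTTGCCGC) was in 1 of 15 and in 2.26% of all windows. The p53 half-site was in 1 of 15 and in 8.36% of all. The E-box was in 2 of 15, those of Bax and 1 start of Bbc3, and in 7.15% of all. No motif overlapped another in these windows. Matches describe the letters of these windows and are not binding sites.

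The tumours were first compared with normal cerebellum, to ask which members differ in tumour tissue. In the 12 tumours 7 members rose and 3 fell, and no member's tumour values overlapped those of the 3 normal cerebella. How many of all tested genes show no such overlap was not counted, so the separation cannot be read as particular to the family. Bid rose 16.2-fold and Pmaip1 11.3-fold, Bcl2l11 4.61-fold, and Bak1, Bax, Bbc3 and Mcl1 by less. The survival genes split: Bcl2l1 and Bcl2 fell and Mcl1 rose. Among the BH3-only genes Bad was the one that fell. The test called 78.9% of the 21661 genes in this comparison, 43.5% higher and 35.4% lower, so that 10 of 10 members called stands beside a background in which most genes changed. The median log2 change of the members was 1.47, beside 0.14 over all tested genes. With no scaling between arrays the latter was −0.04, and the 10 directions stayed as given.

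**Figure D1:**
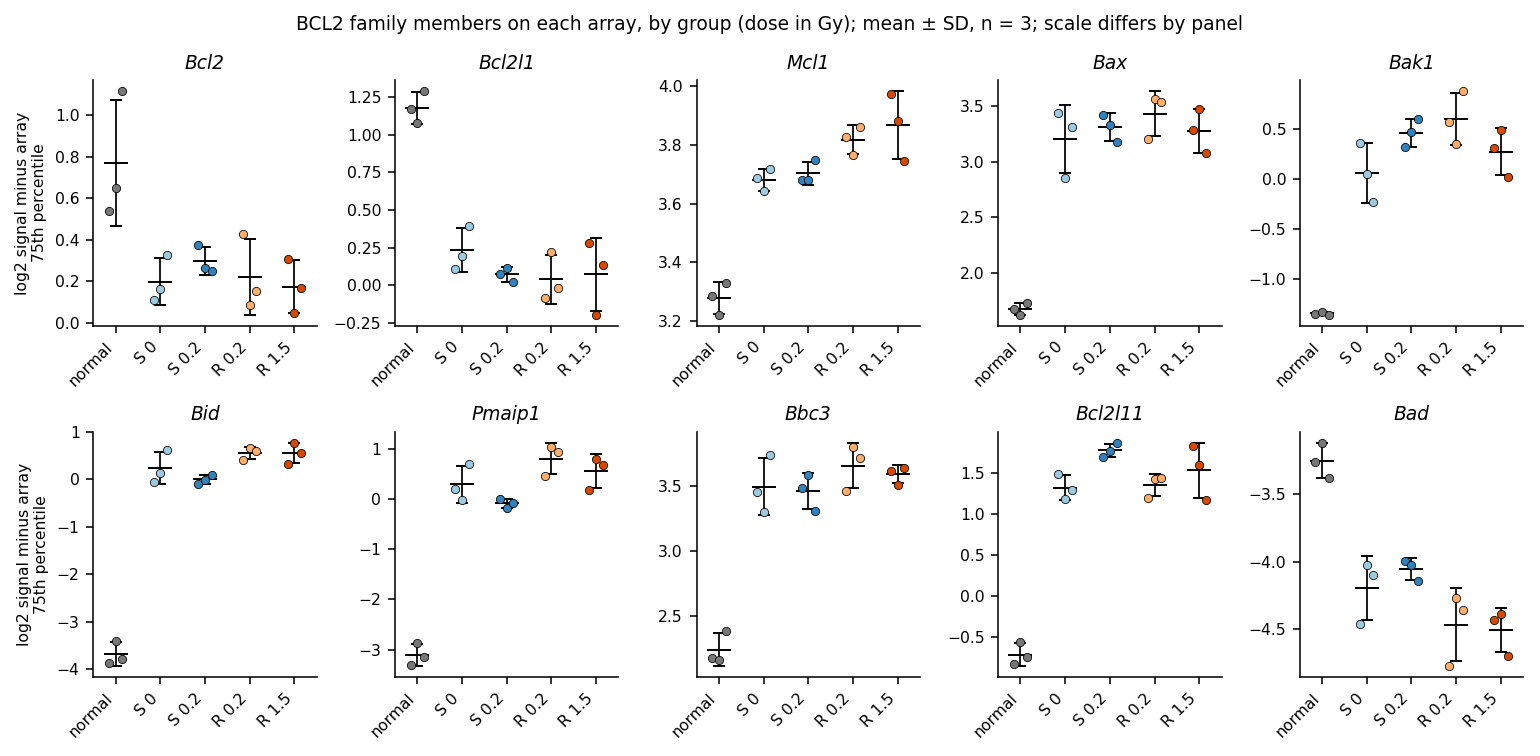
Log2 signal less the array's 75th percentile (vertical axis) of each member's tested probe on the 15 arrays, by group; points are arrays, bars mean ± SD (n = 3), and each panel has its own scale. All 12 tumours lie above the normal cerebella for 7 members and below them for Bcl2, Bcl2l1 and Bad.

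In all of these values the scale is log2 signal less the array's 75th percentile, so that 0 is the level of that percentile, and the levels of different probes are not comparable. Samples were bulk tissue, in which fewer cells of a type and less RNA per cell cannot be told apart. Atoh1, the factor that defines granule neuron precursors, was well above background on all 12 tumours and on 0 of the 3 normal cerebella. Gabra6 of mature granule neurons and Calb1 of Purkinje cells were well above background on all 3 normal cerebella. All 6 listed markers of each of these 2 cell types were also well above background on every S-type 0 Gy tumour. Detection of Gabra6 and Calb1 alone thus does not part the tissues. Markers of cell types moved with the comparison, and their summed levels are given in multiples of the 75th percentile. The 6 markers of dividing cells summed to 0.0692 to 0.177 in the normal cerebella, where Top2a, Ccnb1, Cdk1, Bub1 and Aurkb were not well above background, and to 61.9 to 86.7 in the tumours. The 6 Purkinje cell markers summed to 243 to 266 in normal cerebellum and 2.32 to 4.58 in the tumours, the 6 of mature granule neurons to 252 to 281 and 26.7 to 43.8, and the 7 measured of microglia and macrophages to 3.66 to 4.85 and 21.3 to 39.2. The 6 astrocyte and Bergmann glia markers ran from 150.0 to 173.6 against 5.86 to 20.8, the 6 of oligodendrocytes from 59.6 to 93.1 against 8.19 to 12.3, and the 8 of granule neuron precursors from 110 to 124 against 137 to 171. Endothelial markers overlapped, at 11.9 to 13.8 against 8.18 to 15.9, the 2 of blood fell from 7.60 to 15.7 down to 0.50 to 3.79, and the lymphocyte markers were low throughout, at 0.285 to 0.303 against 0.102 to 0.271, with Ms4a1 and Cd8a not above background on any array. Of the tested markers all 6 of dividing cells and all 7 of microglia were higher in the tumours, and all 6 of Purkinje cells, all 6 of mature granule neurons, 5 of 6 of oligodendrocytes and 5 of 6 of astrocytes were lower. The granule neuron precursor markers, Atoh1 among them, were mixed, with 4 of 8 higher and 2 lower. Those of endothelium were mixed too, with 3 of 6 higher and 2 lower. Mog, of oligodendrocytes, was not well above background on any tumour. The part of these shifts in the members' changes was not tested.

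Bid, which carries the death receptor signal to mitochondria once caspase-8 has cut it, was at −3.86, −3.40 and −3.79 in the 3 normal cerebella. In the tumours it ran from −0.09 (MB4) to 0.765 (MB11), with a median of 0.37. Every tumour was thus more than 3 log2 units above every normal cerebellum. The log2 change was 4.02 ± 0.14 (SE, 12 tumours and 3 normal cerebella), with an adjusted p of 1.08e-10 by limma, and within the 3 slides that held both tissues it was 4.05 to 4.08. Pmaip1, which encodes NOXA, the BH3-only protein that binds MCL1, was at −3.305, −2.88 and −3.15 in normal cerebellum. Its tumour values ran from −0.19 (MB5) to 1.04 (MB8), with a median of 0.325. The change of 3.50 ± 0.17 (SE) had an adjusted p of 2.14e-09, and within slides it was 3.33 to 3.72.

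Bcl2l11, the gene of BIM, a BH3-only protein that binds all survival members, was at −0.84, −0.56 and −0.75 in normal cerebellum and from 1.165 (MB12) to 1.86 (MB6) in the tumours, with a median of 1.45. Its change was 2.21 ± 0.12 (SE, adjusted p = 5.09e-09). The other Bcl2l11 probe was not well above background on any normal cerebellum and was so on all 12 tumours, which gives only a bound: at least 4.77-fold higher in the tumours, taking for the normal cerebella the lowest signal that counted as above background on each array. Bbc3, the gene of PUMA, another BH3-only protein that binds all survival members, was at 2.18, 2.16 and 2.39 against a tumour range of 3.30 to 3.80, a change of 1.31 ± 0.10 (SE, adjusted p = 1.16e-07). Bad, whose protein is held inactive by phosphorylation while survival signals last, ran the other way. Its normal values were −3.26, −3.12 and −3.375, and the tumours ran from −4.77 (MB7) to −3.99 (MB4), a change of −1.06 ± 0.12 (SE, adjusted p = 4.43e-06), or of −0.59 with normexp background correction. Of the 5 BH3-only genes, 4 rose and 1 fell.

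Bax and Bak1, whose proteins form the pore in the outer mitochondrial membrane, both rose. Bax was at 1.68, 1.625 and 1.73 in normal cerebellum and at 2.86 (MB2) to 3.56 (MB8) in the tumours, with a median of 3.32. This change of 1.63 ± 0.12 (SE) had an adjusted p of 9.91e-08. Bax lies on 10 spots of each array, whose standard deviation within an array was 0.022 to 0.103 on the log2 scale. Bak1 was at −1.35, −1.34 and −1.36 against −0.24 (MB3) to 0.87 (MB9), a change of 1.695 ± 0.14 (SE, adjusted p = 1.61e-07). A weaker Bak1 probe for the same transcript rose by 0.40 ± 0.06 (SE, adjusted p over probes = 5.68e-05), so both Bak1 probes rose but by different amounts.

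Of the survival genes, Bcl2l1 was at 1.17, 1.08 and 1.29 in normal cerebellum and between −0.195 (MB11) and 0.395 (MB3) in the tumours. It fell by 1.07 on the log2 scale (SE 0.10, adjusted p = 7.84e-07), and its other 2 probes fell by 1.02 and 1.14. The 3 Bcl2l1 probes thus gave like changes. Bcl2 fell least of the lower members, from 0.54, 0.65 and 1.11 to a tumour range of 0.05 (MB11) to 0.43 (MB7), and NC3 was the highest of the 3 normal cerebella. The change was −0.545 ± 0.11 (SE, adjusted p = 0.000804). A probe for a second Bcl2 transcript, NM_177410 in place of NM_009741, fell by 0.66 on that scale (SE 0.08, adjusted p over probes = 1.19e-05).

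Mcl1, the survival gene whose protein is short-lived, was at 3.285, 3.22 and 3.33 in normal cerebellum and 3.64 (MB2) to 3.97 (MB10) in the tumours. The change was 0.49 ± 0.06 (SE, adjusted p = 5.49e-06), the smallest of the 10 in size, and 0.31 with no scaling. The second Mcl1 probe, for the same transcript, was at −0.61, −0.60 and −0.53 against 1.36 (MB2) to 2.07 (MB7), a change of 2.36 ± 0.10 (SE, adjusted p over probes = 5.32e-10). Both probes put every tumour above every normal cerebellum, while the size of the rise depended on the probe.

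**Figure D2:**
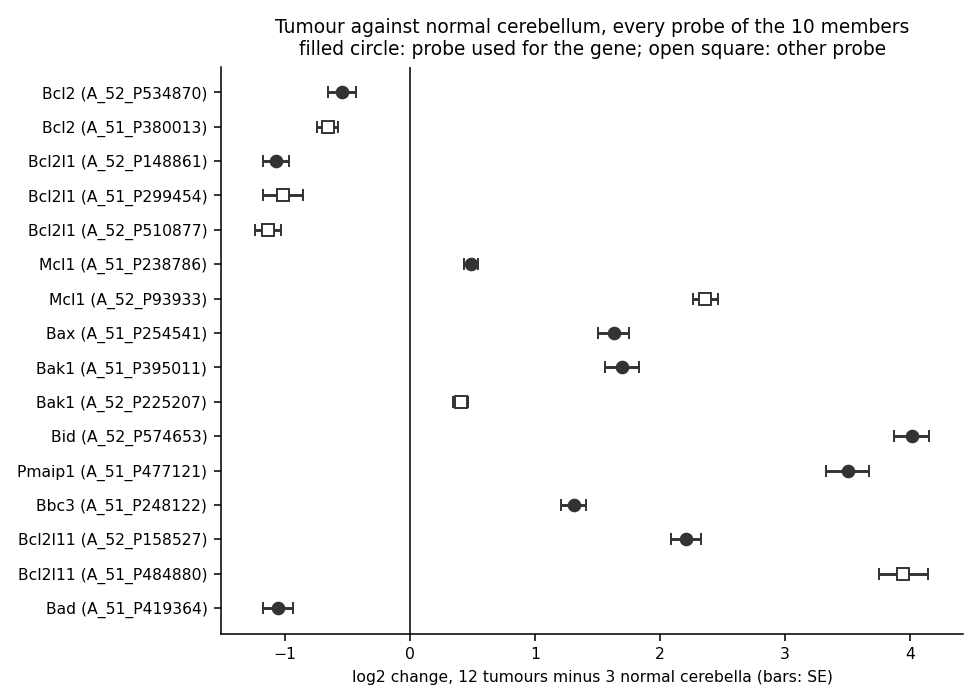
Log2 change between 12 tumours and 3 normal cerebella (horizontal axis) for all 16 probes of the 10 members, with standard errors; circles are the probes used for a gene and squares the other probes. Probes of one gene share their direction, and those of Mcl1 (0.49 and 2.36) and Bak1 (1.695 and 0.40) differ in size.

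Each tumour group was also set against the normal cerebella, which the 4 comparisons share. All 10 members passed in all 4 groups, in the same directions, where the test called 74.3%, 73.9%, 74.1% and 74.5% of all genes in the 4 groups in the order unirradiated S-type, S-type 0.2 Gy, R-type 0.2 Gy and R-type 1.5 Gy. Bid was higher by 3.92 in S-type 0 Gy, 3.68 in S-type 0.2 Gy, 4.23 in R-type 0.2 Gy and 4.23 in R-type 1.5 Gy tumours. Pmaip1 was higher by 3.40, 3.02, 3.91 and 3.67 in the same order, and Bad lower, with changes of −0.95, −0.80, −1.22 and −1.26. Bcl2, the weakest call, changed by −0.57, −0.47, −0.55 and −0.59, with adjusted p-values of 0.00344, 0.0107, 0.00451 and 0.00258.

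R-type and S-type tumours, 6 of each, were compared to ask whether the types differ in the family. The S-type tumours had 0 or 0.2 Gy and the R-type tumours 0.2 or 1.5 Gy. Dose and age thus vary with type here, and their parts cannot be told apart. Pmaip1 and Bid were higher and Bad lower in R-type tumours, and the other 7 members did not pass the test. These 3 of 10 members stand beside 21.1% of all tested genes called in this comparison. In all 3 the values of the types overlapped. The median log2 difference of the members was 0.12, beside 0.02 over all tested genes.

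Pmaip1 was at 0.20, −0.03, 0.70, 0.00, −0.19 and −0.07 in the S-type tumours MB1 to MB6. In the R-type tumours MB7 to MB12 it was at 0.45, 1.04, 0.925, 0.18, 0.80 and 0.68. MB3, an unirradiated S-type tumour, reached the R-type range. The other S-type tumours went up to 0.20, and of the R-type tumours MB10 alone lay below that. The difference was 0.58 ± 0.16 (SE, adjusted p = 0.0224), and R-type was higher within all 4 slides, by 0.22 to 0.92. This call ended without MB9 (0.55, adjusted p = 0.0559), without MB11 (0.52, adjusted p = 0.0548) and with no scaling between arrays (0.36, adjusted p = 0.0842). With no scaling, the median of all genes moved to −0.20 for this comparison.

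Bid was at −0.05, 0.14, 0.61, −0.09, −0.02 and 0.10 in MB1 to MB6 and at 0.41, 0.65, 0.59, 0.33, 0.765 and 0.55 in MB7 to MB12. All S-type tumours but MB3 were below all R-type tumours. The difference was 0.43 ± 0.13 (SE, adjusted p = 0.0303), higher in R-type within all 4 slides, by 0.10 to 0.62. Of 25 alternatives 10 ended the call, with values of 0.21 (no scaling) to 0.53 over all 25 and adjusted p-values up to 0.275; those that leave out MB1, MB2, MB4, MB5, MB8, MB9, MB11 or MB12 were among the 10.

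Bad was at −4.46, −4.03, −4.10, −3.99, −4.025 and −4.14 in MB1 to MB6 and at −4.77, −4.27, −4.355, −4.43, −4.39 and −4.70 in MB7 to MB12. MB1 lay among the R-type tumours, and the other 5 S-type tumours were above all of them. The difference was −0.36 ± 0.11 (SE, adjusted p = 0.0338), lower in R-type within all 4 slides, by −0.74 to −0.11. Of 25 alternatives 11 ended this call, with values of −0.58 (no scaling) to −0.13 (normexp) over all 25 and adjusted p-values up to 0.135. The 11 were quantile normalization, normexp, no filter on dim probes, the intensity trend, only the groups compared, and leaving out MB2, MB3, MB4, MB5, MB7 or MB12.

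The other 7 members did not pass. Of these Mcl1 came nearest, with a difference of 0.15 ± 0.05 (SE, 95% interval 0.04 to 0.26, adjusted p = 0.0558) that was above 0 within all 4 slides. The intervals of the other 6 included 0, at −0.27 to 0.17 for Bcl2, −0.29 to 0.10 for Bcl2l1, −0.14 to 0.34 for Bax, −0.09 to 0.44 for Bak1, −0.05 to 0.34 for Bbc3 and −0.34 to 0.13 for Bcl2l11. Of the 2 Bcl2 probes, the NM_177410 probe gave −0.30 ± 0.08 (SE, adjusted p over probes = 0.0146) and was lower in R-type within all 4 slides. The NM_009741 probe, used for the gene, gave −0.05 ± 0.10 (SE). On the NM_177410 probe the S-type values were 0.22, 0.07, −0.03, 0.08, 0.10 and 0.20 and the R-type values −0.11, −0.21, −0.28, −0.32, −0.20 and −0.08, with no overlap. Whether the differences on the 2 probes differ from each other was not tested, so no difference between the transcripts is claimed. The markers of dividing cells, summed as above, ran from 61.9 to 82.4 in S-type and from 63.8 to 86.7 in R-type tumours, those of microglia and macrophages from 26.2 to 39.2 and from 21.3 to 35.8, and those of Purkinje cells from 3.09 to 4.58 and from 2.32 to 3.56, all overlapping; their part in the differences was not tested.

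**Figure D3:**
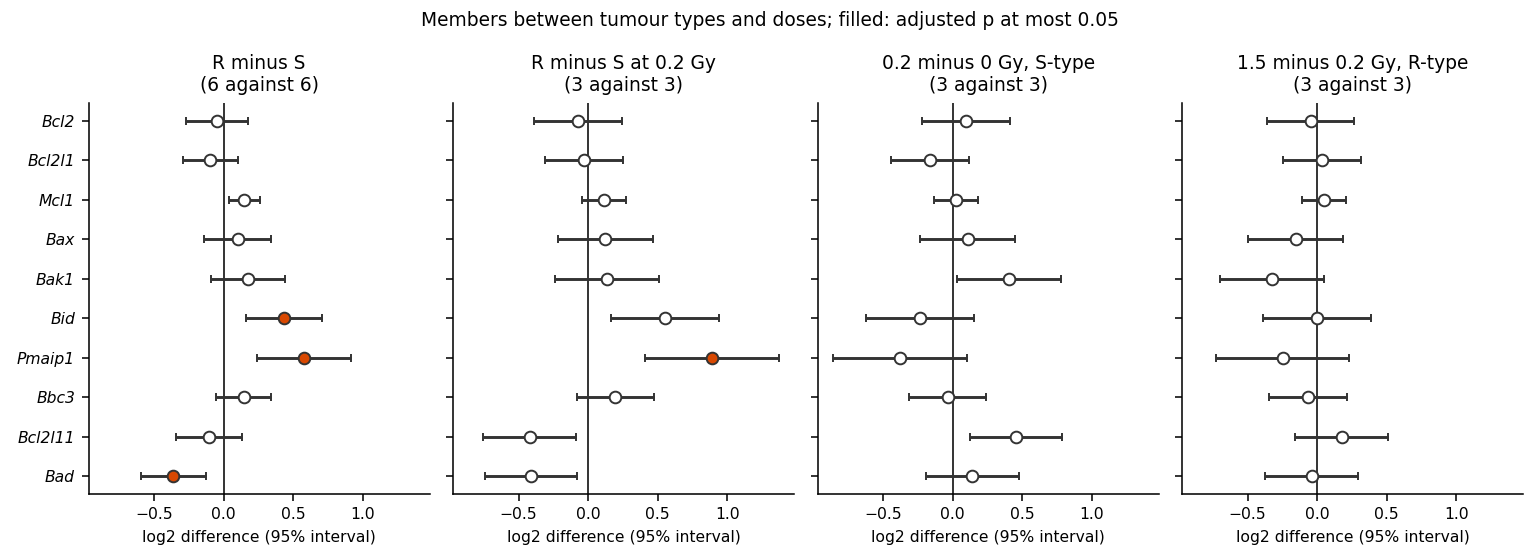
Log2 differences of the 10 members with 95% intervals (horizontal axis) between tumour types at all doses and at 0.2 Gy, and between doses within each type. Filled points passed an adjusted p of 0.05: Pmaip1 (0.58), Bid (0.43) and Bad (−0.36) over all doses and Pmaip1 (0.89) at 0.2 Gy.

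At 0.2 Gy, the dose both types share, 3 R-type tumours were set against 3 S-type tumours. Pmaip1 passed, 1 of 10 members beside 4.76% of all tested genes. It was 0.89 ± 0.22 (SE) higher in R-type (adjusted p = 0.0412), with MB7 to MB9 at 0.45 to 1.04 and MB4 to MB6 at −0.19 to 0.00. This call was lost in 13 of 25 alternatives, with adjusted p-values up to 0.147, among them slide as a block (0.71, adjusted p = 0.0552), only these 6 arrays in the fit (adjusted p = 0.0698), and leaving out any normal cerebellum or MB4, MB5, MB6, MB8, MB9 or MB12. Bid (0.55, adjusted p = 0.097), Bcl2l11 (−0.42, adjusted p = 0.134), Bad (−0.41, adjusted p = 0.140) and Mcl1 (0.11, adjusted p = 0.377) had no overlap between the groups and did not pass. How many of all tested genes show no such overlap was not counted. The other Bcl2l11 probe did overlap between the groups and gave −0.0147 (adjusted p over probes = 0.979). The summed markers of 2 of the 10 cell type lists had no overlap between these groups. Those of mature granule neurons were at 26.7 to 30.6 in MB4 to MB6 and 36.1 to 38.9 in MB7 to MB9. Those of endothelium were at 10.8 to 12.4 and 13.0 to 14.4. The part of these markers in the members' differences was not tested.

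Dose was compared within a type. The ages of the doses do not overlap within either type, so dose and age cannot be told apart. In S-type tumours age was 160 to 173 at 0 Gy and 128 to 135 at 0.2 Gy. In R-type tumours it was 106 to 127 at 0.2 Gy and 87 to 103 at 1.5 Gy. Between S-type tumours at 0.2 Gy and 0 Gy, 0 of 10 members passed limma's test, beside 0.00462% of all tested genes, which is 1 gene. At an unadjusted p under 0.05 Bak1 (0.40, 95% interval 0.03 to 0.78) and Bcl2l11 (0.46, 95% interval 0.12 to 0.79) were higher at 0.2 Gy, and 1246 genes were past that level in all. The other Bak1 probe gave 0.03 ± 0.08 (SE), so it did not show the Bak1 difference. The other Bcl2l11 probe gave 0.51 ± 0.25 (SE). Bcl2l11 was at 1.695, 1.76 and 1.86 in MB4 to MB6 and 1.48, 1.18 and 1.29 in MB1 to MB3, with no overlap. Between R-type tumours at 1.5 Gy and 0.2 Gy, 0 of 10 members passed, beside 0.0692% of all tested genes, or 15 genes. At an unadjusted p under 0.05 there were 0 members and 1530 genes. The widest interval was that of Pmaip1, −0.73 to 0.23 with a difference of −0.25.

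The members also varied from tumour to tumour. Over the 12 tumours Pmaip1 and Bid had a Pearson r of 0.91, and of 0.82 within S-type and 0.85 within R-type tumours. The S-type value leans on MB3, the highest S-type tumour for both genes (0.70 for Pmaip1 and 0.61 for Bid). Next highest were different tumours: MB1 for Pmaip1 (0.20, with Bid at −0.05) and MB2 for Bid (0.14, with Pmaip1 at −0.03). An r without MB3 was not computed, so no joint variation among the remaining S-type tumours is claimed. Bid was most like Bcl2l13 (r = 0.94) and Epb41l4b (0.94) among 11460 genes well above background on all tumours, and Pmaip1 like Rab43 (0.91) and then Bid. The other members were each nearest to other genes: Bcl2 to Bud31 (0.82) and Lrrc8a (0.80), Bcl2l1 to Nudt10 (0.92) and Nsg2 (0.90), Mcl1 to Hars (0.94) and Abce1 (0.94), and Bax to Znhit1 (0.96) and Pole3 (0.95). Bak1 was nearest to Galnt7 (0.93) and Glmp (0.90), Bbc3 to Tnpo1 (0.91) and Mrpl35 (0.89), Bcl2l11 to Lasp1 (0.89) and Naglu (0.87), and Bad to Sgk3 (0.91) and Dusp28 (0.90). These are descriptions over 12 arrays that share type, dose and slide, and the highest of 11460 values is high for any gene: the top percentile of r began at 0.57 to 0.85, depending on the member.

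Bcl2l13, which encodes a mitochondrial protein of the family, lies next to Bid among the tested genes of chromosome 6. Its values were 1.97, 2.08, 2.60, 2.06, 2.00 and 1.92 in MB1 to MB6 and 2.76, 2.77, 2.885, 2.43, 2.94 and 2.82 in MB7 to MB12. As for Bid, MB3 stood above the other S-type tumours and MB10 below the other R-type tumours. Of the 10 nearest tested neighbours of Bid, 5 on each side, Bcl2l13 was the 1 that differed between types (0.665, adjusted p = 0.00210), and the 10 ran from −0.39 to 0.88 with a median of 0.08. The median difference of the 672 other tested genes of chromosome 6 was 0.07, beside 0.05 over 13418 genes on named chromosomes. In single tumours the median of these 672 genes, less their S-type mean, was highest in MB3 at 0.36 and lowest in MB6 at −0.34. Its part in the Bid values was not tested.

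**Figure D4:**
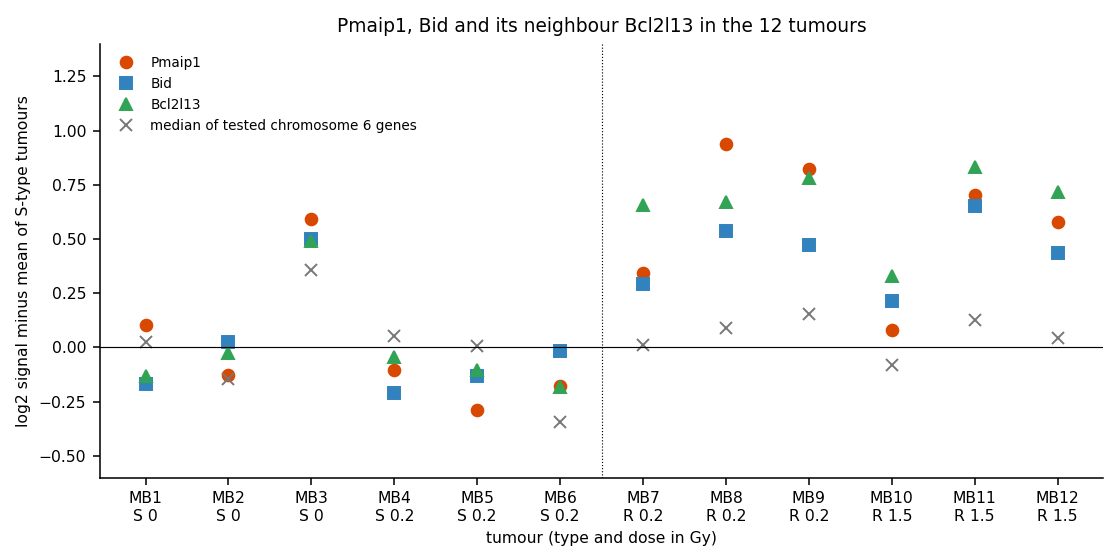
Log2 signal less the mean of the 6 S-type tumours (vertical axis) for Pmaip1, Bid and Bcl2l13 in each of the 12 tumours, with the median of the 672 other tested chromosome 6 genes. MB3 is high for all 3 genes among S-type tumours, and MB10 low among R-type tumours.

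The other BCL2 family and BH3-like genes gave 10 tested genes of 16 listed. Between tumours and normal cerebella 6 rose and 2 fell, 8 of 10 beside 78.9% of all genes, with a median of 0.80 beside 0.14 for all genes. Bcl2l2, the survival gene of BCL-W, which is abundant in adult neurons, fell from 3.27, 3.28 and 3.29 to a tumour range of 1.12 to 1.53, a change of −2.03 (adjusted p = 4.55e-10). Bcl2l12 (2.97), Bcl2l13 (2.01) and Bcl2a1b (3.30), a survival gene of blood and immune cells with near-identical copies, rose. Hrk, a BH3-only gene of neurons, was not well above background on any normal cerebellum and so on 9 of 12 tumours, at least 1.73-fold higher in the tumours.

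Between the types 3 of these 10 genes passed, beside 21.1% of all genes, and each of the 3 did so in all 25 alternatives. Bmf, a BH3-only gene tied to the cytoskeleton, was at 0.92, 0.58, 0.63, 0.34, 0.225 and 0.60 in MB1 to MB6 and at −0.55, −0.64, −0.74, −0.43, −0.40 and −0.25 in MB7 to MB12, with no overlap. Its difference was −1.05 (adjusted p = 2.64e-05), larger in size than that of any of the 10 members, and −0.69 with the mean of its probes. Between tumours and normal cerebella the Bmf change was −0.09 (adjusted p = 0.393), with the normal cerebella at 0.02 to 0.26, above all R-type tumours and within the S-type range at their upper end. Bcl2l12, named for a domain it shares with the family, was 0.60 higher in R-type tumours (adjusted p = 0.00849), at 0.44 to 0.68 against −0.74 to 0.32, where MB2 and MB3 were the lowest, and 0.38 higher with no scaling. Bcl2l13 was the third.

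Downstream of the members, 14 of 15 genes of mitochondrial release, the apoptosome and caspases were tested, of which 10 rose and 3 fell in the tumours, with a median of 0.93. Here and in the following 3 lists the counts stand beside 43.5% of all genes higher and 35.4% lower. Apaf1, the scaffold of the apoptosome, rose by 2.51 (adjusted p = 9.49e-13). Endog, a mitochondrial nuclease gene, fell by 1.595 on the log2 scale. Of the inhibitor of apoptosis genes 4 rose and 3 fell among 8 tested. Birc5, which encodes survivin, a protein of mitosis and of cell survival, rose by 8.48 (adjusted p = 1.22e-12), moving with the markers of dividing cells. Xiap, the direct caspase inhibitor, fell by 1.04 on the log2 scale, and Naip2, not well above background on any normal cerebellum, was at least 4.14-fold higher in the tumours. Naip6 changed by −8.32 and was well above background on all 3 normal cerebella and 7 of 12 tumours. With the mean of its probes, the other of which was not above background on any array, that change was −3.99. Naip genes have near-identical copies, so their signals may be shared.

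Of 7 death receptor and adaptor genes 4 rose and 1 fell: Tnfrsf1a, the TNF receptor gene, rose by 2.42, Fadd, the adaptor of death receptors, by 1.37, Ripk1 by 2.09 and Tradd by 0.62, both partners of that receptor. Of the 12 tested regulators of the family 5 rose and 6 fell. E2f1, a cell cycle factor, rose by 5.44 (adjusted p = 7.79e-13), and Fbxw7, part of a ubiquitin ligase that marks MCL1 for decay, fell by 2.13 on the log2 scale (adjusted p = 6.89e-09). Trp73, a relative of p53, and Ddit3, a stress factor that can raise Bcl2l11, changed by −1.35 (−0.89 with normexp) and −1.295. Trp53, named here after its values were seen, had probes that disagreed: the brighter probe gave −0.29 and the other 3.16, so no direction is given for it, though the list's count of genes that fell includes its brighter probe.

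**Figure D5:**
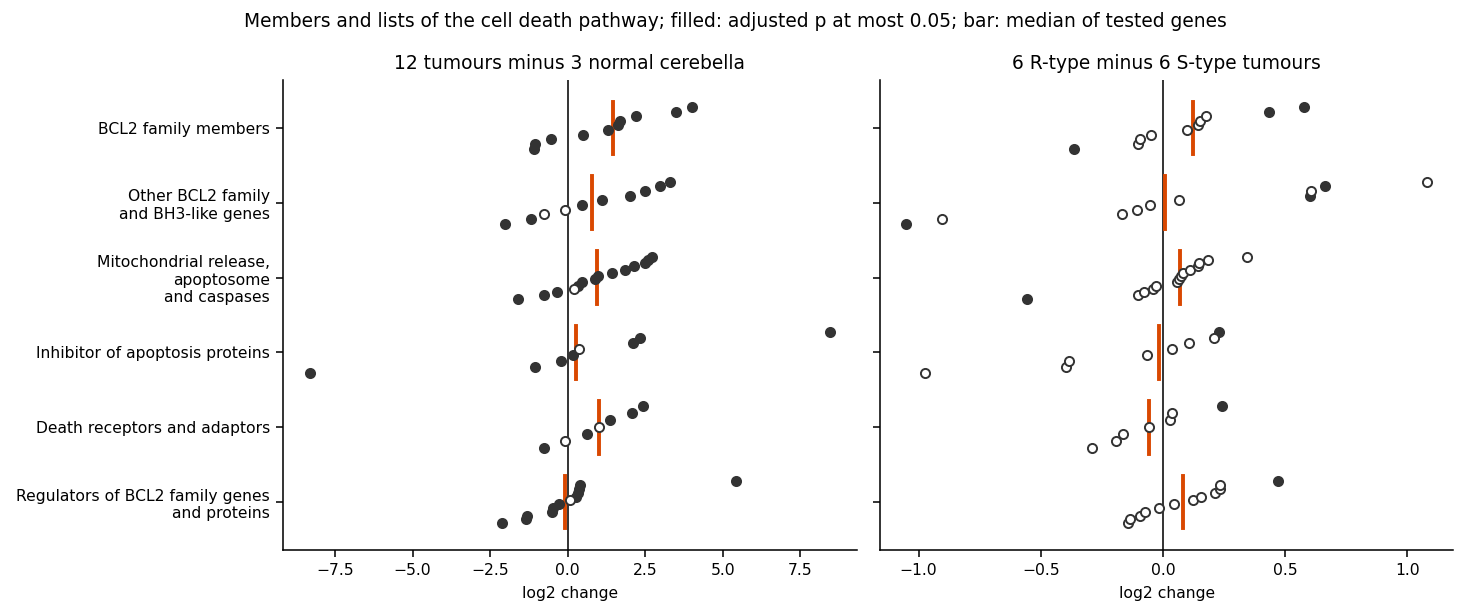
Log2 changes (horizontal axes) of the members and of the tested genes of 5 other lists of the cell death pathway, between tumours and normal cerebella and between tumour types; filled points passed an adjusted p of 0.05 and bars mark medians. Medians between tumours and normal cerebella run from −0.10 (regulators) to 1.47 (members), and those between types from −0.06 to 0.12.

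Between the types 1 of the 8 inhibitors, 1 of the 7 death receptor genes and 1 of the 12 regulators passed, beside 21.1% of all genes. Birc6, the gene of a large ubiquitin ligase among the inhibitors, was higher in R-type (0.23, adjusted p = 0.0187). Tnfrsf1a (0.24, adjusted p = 0.0454) and Foxo1, a factor that can raise Bcl2l11 (0.47, adjusted p = 0.0288), were also higher, calls that held in 10 and 16 of 25 alternatives. That of Birc6 held in 23 and ended without MB9 (0.21, adjusted p = 0.0518) and with no scaling. With no scaling the differences were 0.0092 for Birc6, 0.022 for Tnfrsf1a and 0.25 for Foxo1.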

How the data were processed

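The 15 samples, 12 of tumour and 3 of cerebellum, were on 1-colour Agilent arrays on 4 slides, 1 sample to an array. Per the submitters' processing notes the authors extracted the spot intensity values with Agilent Feature Extraction 9.5.1, subtracting background and not scaling arrays to each other, per the file headers. The deposited series table held log2 values; how the authors made it is not stated, and it was used as an alternative only, its scale and centring before a reference to the mean of MB1 and MB2 staying unknown. Its differences between arrays tracked those of the scanner values (r of 0.99992 or more), with the same direction, and its column medians ran from −0.0795 to 0.152.

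From the processed intensity, log2 was taken and the array's 75th percentile over probes subtracted (1181.6 to 1614.0 on the linear scale). Spots of a probe were averaged, control spots and 76 probes with spots marked as outliers were left out. Probes were named through RefSeq transcript accessions in the NCBI gene table of GRCm38.p6, and 24800 of 41098 probes had a symbol. The array annotation is mm9, so no array coordinates are given. For each gene the probe with the highest mean was used, and a gene was tested if that probe was above background, by the scanner software's own mark, on 3 or more arrays. Between 59.1% and 66.5% of probes were well above background on an array. The number of arrays limits the precision.

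limma 3.58.1 in R 4.3.3 fitted 5 group means over all 15 arrays (10 residual degrees of freedom), with Benjamini-Hochberg adjustment over 21661 genes and a threshold of 0.05; probes of a member other than the one used come from the same fit over 28524 probes. Values between tissues average the 4 tumour groups. Python 3.11.15, pandas 2.3.3 and matplotlib 3.10.9 made the other values. The fit was tested on simulated data. The members and lists were chosen with earlier results of these data known. Named genes were all members, up to 4 genes of each list with the smallest adjusted p between tissues and between types among those that passed, and the 2 genes most correlated with each member over the tumours; some genes that this rule selects are not reported here. The lists were the other family genes, mitochondrial release and caspases, inhibitors of apoptosis, death receptors, regulators of the family, and 10 lists of cell type markers. Neighbours and chromosome medians were added after seeing the data. Alternatives were quantile normalization, no scaling, normexp (offset 50) on raw signals, no filter or a stricter one on dim probes, the mean of all probes, the deposited table, slide as a block, an intensity trend, only the groups compared, and each array left out.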

Additional observations from a re-analysis of the deposited data

Results flagged for a closer look

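Of 32 sets of 6 tumours of one type, each on one member probe, 3 had a tumour far from the other 5; chance alone flags about 1 set in 20. On the weaker Bcl2l1 probe A_51_P299454 the S-type tumour MB6 was at −4.49, below the other S-type tumours at −4.05 to −3.89. For Bid the S-type tumour MB3 was at 0.612, above the other S-type tumours at −0.09 to 0.14. For Bad the S-type tumour MB1 was at −4.46, below the other S-type tumours at −4.14 to −3.99. The change against normal cerebellum was larger in R-type than in S-type tumours for Pmaip1, by 0.578, and for Bid, by 0.435, and it differed by −0.362 for Bad, each by limma's test of that difference (adjusted p-values 0.0224, 0.0303 and 0.0338). Because both types share the same normal cerebella, these are the differences between types already given, and not further results.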

How the results depend on the processing

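Between tumours and normal cerebella all 10 members kept call and direction in 24 alternatives. For the other comparisons counts moved. Between types 1 member was called with no filter on dim probes and 1 to 3 with an array left out, where 3037 to 5298 genes were called against 4572. Between types at 0.2 Gy the genes called were 2673 with no scaling, 539 with no filter, 437 with slide as a block, 455 with only the groups compared and 295 to 1402 with an array left out, against 1032; members called were 2 with no scaling or normexp, 0 with no filter, slide or only the groups compared, and 0 to 2 with an array left out. Between 0.2 and 0 Gy in S-type tumours 2 genes were called with quantile normalization, 3 with the stricter filter, the mean of probes or the deposited table, 0 with no scaling, no filter, slide or only the groups compared, and 0 to 20 with an array left out, against 1. Between 1.5 and 0.2 Gy in R-type tumours 0 genes were called with only the groups compared and 9 to 158 with an array left out, against 15. With the mean of all probes the tumour change became −0.69 for Cycs, 0.41 for Cflar and 1.44 for Trp53, since their probes disagree, and with quantile normalization that of Vdac3 became −0.0145. The cause of the other changes was not tested. No paired analysis was possible because the tumours are numbered without repeats across groups. Groups of 3 arrays and an array-specific background limit what dim probes such as Bad can show.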
